A study of Homo sapiens with 4 samples.

Results

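The Wnt pathway genes of human cardiomyocytes of 2 origins were described across 4 RNA-seq libraries. The genes were chosen by symbol, by a rule that uses no measured value but was written with earlier results of these data known: every WNT ligand, frizzled receptor, SFRP1, SFRP2, SFRP4, SFRP5, DKK1 to DKK4, RSPO1, RSPO2, RSPO4, LGR4 to LGR6, LRP5 and LRP6, the TCF/LEF factors, and 15 further genes, among them the axins, the tankyrases, APC and feedback targets of the pathway. The rule found 64 genes among the 23615 symbols of the gene table, each with a single entry. All cells came from RUES2, a line of human embryonic stem cells. Before induction, cultures were treated with CHIR-99021, which activates Wnt/β-catenin signaling by inhibiting GSK3. Both groups were induced with activin A at 100 ng/ml, followed the next day by BMP4 at 5 ng/ml (A100/B5) with 1 µM CHIR-99021. They were collected unsorted on day 14. CPC cardiomyocytes came from cardiac progenitor cells by the standard cardiac protocol, which in a subset of experiments, not further specified, included 1 µM XAV on day 3. Elsewhere the paper refers to day 3, without this limit, as the point at which cardiac differentiation receives XAV. ECsXAV cardiomyocytes came from cultures that were given VEGF, bFGF and further BMP4 on day 2 to form hemogenic endothelial cells and were then exposed to 2 µM XAV from day 5 to day 7. XAV (XAV-939) inhibits tankyrase, and whether the sequenced CPC cultures received it is not given in the sources used here. Each group had 2 biological replicates of a single line. The sample names carry one prefix for each group, so the differentiation experiment and the group cannot be told apart.

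Wnt ligands are secreted lipid-modified proteins that bind a frizzled receptor together with LRP5 or LRP6. In the absence of a ligand, axin and APC hold β-catenin in a complex that marks it for degradation. Ligand binding disables this complex and lets β-catenin enter the nucleus, where it acts with TCF/LEF factors on target genes such as AXIN2. Tankyrase marks axin for degradation, so its inhibition stabilises axin and lowers β-catenin. In the heart, Wnt/β-catenin signaling is needed for mesoderm to form and is then restrained for cardiac specification, and ligands such as WNT11 and WNT5A act largely through other branches of the pathway.

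Values are FPKM, fragments of a transcript scaled by its length and by the mapped fragments of the library, as the authors deposited them. Levels of different genes can therefore be compared per length, while the protein, its modification and its activity were not measured. Fold changes are differences of log2(FPKM + 1), CPC minus ECsXAV, and the added 1 understates the change of weakly expressed genes. Genes with a mean of at least 1 FPKM over the 4 libraries were tested with limma, and a gene was called at an adjusted p under 0.05 and over 2-fold. A two-sided exact permutation test of 1 gene over 2 libraries a group can reach no p under 0.333, and the p-values given here come from limma, whose variance estimate borrows from all tested genes. Relative to ECsXAV replicate 1, the other libraries had 50.1 to 86.9% of its depth, with ECsXAV replicate 2 the shallowest, and the absolute depth is unknown. In these unsorted cultures, fewer cells of a type and less RNA per cell cannot be told apart.

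TNNT2, which encodes cardiac troponin T and marks cardiomyocytes, was at 2309 to 2988 FPKM in the 4 libraries, and the summed FPKM of 8 cardiomyocyte markers was 12432 to 13987. Of these 8, 5 did not overlap between the groups and 2 were called, with MYH7 at 1011 and 931 FPKM in ECsXAV and 147 and 194 FPKM in CPC, and MYH6 at 855 and 857 FPKM against 2070 and 1901 FPKM. Beside these counts and those below, 49.8% of all genes tested did not overlap, with 25.4% higher in ECsXAV, and 2.15% were called. Among genes below a mean of 1 FPKM and above 0 in any library, 40.3% did not overlap. Markers of several other cell types moved with the group, and those of others did not. The summed FPKM of 5 proliferation markers was 56.7 and 48.4 in ECsXAV against 19.4 and 19.6 in CPC, with all 5 higher in both ECsXAV libraries. The sum of 10 fibroblast and stroma markers was 192 and 228 against 108 and 106, with 8 higher and 1 lower in both ECsXAV libraries. The sum of 9 hepatic and endoderm markers was 43.0 and 35.1 against 16.3 and 18.5, with 8 higher in both ECsXAV libraries. The sum of 5 smooth muscle markers was 297 and 267 against 141 and 168, with 2 higher and 1 lower in both ECsXAV libraries. The sum of 5 blood markers was 3.01 and 5.08 against 0.552 and 0.273, most of it the embryonic globin HBE1, while PTPRC was listed at 0 in all libraries. The sum of 8 endothelial markers was 10.6 to 13.1 FPKM in the 4 libraries, most of it KDR, with 4 of the 8, CDH5 among them, higher in both ECsXAV libraries and VWF at no more than 0.0209 FPKM. Of 9 skeletal and paraxial markers, which summed to 2.99 and 3.94 in ECsXAV and to 25.2 and 19.3 in CPC, STAC3 carried the difference, at 1.91 and 2.19 FPKM against 23.6 and 17.7 FPKM. Without it the sums were 1.08 and 1.75 against 1.66 and 1.55, and MYOD1 was at 0 in 3 libraries. The sum of 5 epithelial markers was 183 and 388 in ECsXAV against 172 and 131 in CPC, with 3 higher in both ECsXAV libraries. KRT8 and KRT18 were listed at 0 in ECsXAV replicate 1 and in CPC replicate 2. The sum of 5 pluripotent markers was 7.56 and 8.06 against 5.94 and 5.81, with 1 higher and 1 lower in both ECsXAV libraries. Outside the cardiomyocyte list, 4 of the 5 proliferation, 3 of the 10 fibroblast and stroma and 3 of the 9 hepatic and endoderm markers were called. So were 1 of the 5 smooth muscle and 1 of the 9 skeletal and paraxial markers. No endothelial, epithelial, pluripotent or blood marker was called. The part of these cells in the Wnt results below was not tested.

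WNT2 was the only member called of the 34 tested, and it was higher in CPC. This is 2.94% of the tested members, beside 2.15% of all 12398 genes tested. Of all genes, 0.71% were called higher in CPC and 1.44% higher in ECsXAV, where no member was called. At an adjusted p under 0.05 with no limit on size, 2 members passed, WNT2 and FZD7, which is 5.88% beside 2.89% of all genes. At an unadjusted p under 0.05 there were 10 members, or 29.4%, beside 18.2% of all genes. Of these 10, 6 were higher in CPC and 4 in ECsXAV, which is 17.6 and 11.8% beside 7.86 and 10.4% of all genes. The 2 groups of libraries did not overlap for 18 members, 11 higher in CPC and 7 in ECsXAV, which is 52.9% beside 49.8% of all genes, with 24.4% higher in CPC and 25.4% higher in ECsXAV. The median log2 fold change of the tested members was 0.10, over a range of -0.66 to 2.56, and that of all genes tested was -0.0045. For 30 of the 34, or 88.2%, the 95% interval lay within a 2-fold change in both directions, as it did for 87.7% of all genes. The 4 whose interval reached 2-fold were WNT2, FZD7, FZD4 and FZD1.

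**Figure D1:**
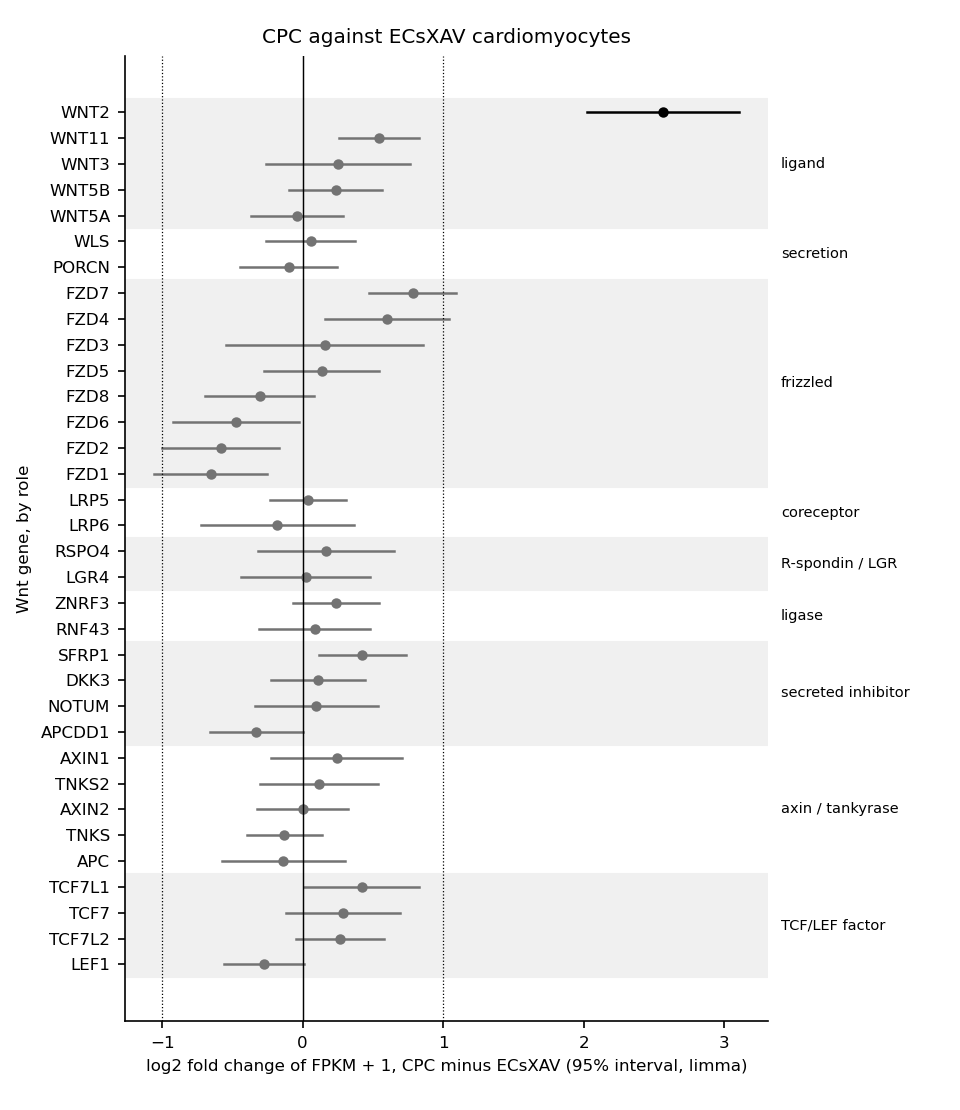
Points give the log2 fold change of FPKM + 1, CPC minus ECsXAV, of the 34 tested Wnt genes with their 95% limma interval, grouped by role, and dotted lines mark a 2-fold change. WNT2, the black point at 2.56, lies apart from the other 33, which run from -0.66 to 0.78.

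Promoter sequences are shown for 3 members, the ligand that differed and 2 textbook targets of β-catenin. These 2 are the only members whose windows held a match, so any contrast with the ligand follows from this choice. They are WNT2, the called ligand, and DKK1 and SP5, which are direct target genes. Each is the 250 bases before the gene's start in RefSeq on GRCh38.p14, a later build than the hg19 of the FPKM, printed 5′ to 3′ on the gene's strand. Capitals mark CTTTGAA or CTTTGAT on either strand, the core letters that TCF/LEF factors bind. The WNT2 window is chr7:117323059-117323308 on the minus strand, the DKK1 window chr10:52314031-52314280 on the plus strand and the SP5 window chr2:170715087-170715336 on the plus strand.
WNT2: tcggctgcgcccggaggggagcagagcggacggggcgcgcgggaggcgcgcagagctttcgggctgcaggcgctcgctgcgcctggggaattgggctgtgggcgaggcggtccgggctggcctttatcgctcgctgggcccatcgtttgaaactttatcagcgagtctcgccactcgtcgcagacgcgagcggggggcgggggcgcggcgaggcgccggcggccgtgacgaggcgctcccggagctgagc
DKK1: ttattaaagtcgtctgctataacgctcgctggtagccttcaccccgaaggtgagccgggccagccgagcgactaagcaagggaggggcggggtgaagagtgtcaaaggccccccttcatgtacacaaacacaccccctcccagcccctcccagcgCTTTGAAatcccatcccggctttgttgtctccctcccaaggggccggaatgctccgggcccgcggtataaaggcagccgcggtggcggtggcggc
SP5: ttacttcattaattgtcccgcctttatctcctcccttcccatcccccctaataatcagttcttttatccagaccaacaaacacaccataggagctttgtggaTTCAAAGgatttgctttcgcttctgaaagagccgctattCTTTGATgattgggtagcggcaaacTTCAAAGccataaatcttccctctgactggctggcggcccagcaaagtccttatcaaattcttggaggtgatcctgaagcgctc
The WNT2 window held no match. The DKK1 window held 1, at 95 bases from the start, and the SP5 window held 3, at 148, 109 and 84 bases. Of 35116 such windows of all genes, 5.94% held at least 1 match and 7 windows, or 0.0199%, held 3 or more. Windows were found for 44 of the 64 members, 56 windows in all, and the windows of DKK1 and SP5 were the only ones with a match. Those of the feedback targets LEF1, TCF7, APCDD1 and RNF43 held none, like that of WNT2. For the targets AXIN2, NKD1, ZNRF3, NOTUM and LGR5 no window was found. A match is a description of letters and not a measured site.

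The ligands were 19 of the 64 members, and 5 of them reached the filter. WNT5B, WNT2, WNT11 and WNT5A held nearly all of the ligand signal, and WNT3 was the fifth. WNT2, a canonical ligand expressed in early cardiac mesoderm and in the lung, was at 4.45 and 5.30 FPKM in the ECsXAV libraries and at 40.6 and 27.8 FPKM in the CPC libraries. Every CPC value was over 5 times every ECsXAV value. The log2 fold change was 2.56 (SE 0.21, 95% interval 2.02 to 3.10, n = 2 and 2, adjusted p = 0.0152, limma), a 5.91-fold difference on that scale, and the ratio of the mean FPKM was 7.02. By size of fold change WNT2 ranked 17 of the 88 genes called higher in CPC, and 3 of 74 once short RNA symbols such as microRNAs were set aside. The gene lies at chr7:116915505-116963206 on the minus strand (GRCh37, the build of hg19), where CFTR overlaps it on the opposite strand, with 0.152 and 0.198 FPKM in ECsXAV and 0.614 and 0.296 FPKM in CPC. The call was lost when any single library was left out, at adjusted p = 0.0545 to 0.0952 (limma), and when no filter on low genes was used, at adjusted p = 0.0630, while the log2 fold change stayed between 2.30 and 2.83.

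The make-up of the ligand pool differed between the groups. The summed FPKM of the 19 ligands was 62.1 and 63.5 in ECsXAV and 108 and 99.5 in CPC. Without WNT2 the sums were 57.7 and 58.2 against 67.4 and 71.6. WNT2 made up 7.16 and 8.34% of the sum in ECsXAV and 37.6 and 28.0% in CPC, a mean of 7.75% ± 0.84 (SD, n = 2) against 32.8% ± 6.82. Its rank among the ligands was 4 in both ECsXAV libraries, and 1 and 2 in the CPC libraries. WNT5B, which acts mainly outside the β-catenin branch, was at 22.7 and 23.8 FPKM in ECsXAV and at 25.2 and 30.1 FPKM in CPC (log2 fold change 0.24, SE 0.13, adjusted p = 0.420, limma). It was the top ligand in every library except CPC replicate 1.

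WNT11, a ligand of the non-canonical branch that is expressed in cardiac mesoderm, was at 15.2 and 15.5 FPKM in ECsXAV and at 21.6 and 24.1 FPKM in CPC. Both CPC libraries were above both ECsXAV libraries, and the difference missed the threshold (log2 fold change 0.54, SE 0.11, 95% interval 0.26 to 0.83, adjusted p = 0.0857, limma). WNT5A, the other main non-canonical ligand, overlapped between the groups, at 17.8 and 16.1 FPKM against 17.7 and 15.2 FPKM, and its interval of -0.37 to 0.29 on the log2 scale excludes a 2-fold difference. WNT3 was at 0.803 to 1.61 FPKM, with overlap. The remaining 14 ligands were below the filter. The secretion factors did not differ detectably. WLS, which carries ligands to the cell surface, was at 61.1 and 54.0 FPKM in ECsXAV and at 62.5 and 57.2 FPKM in CPC (log2 fold change 0.06, 95% interval -0.26 to 0.37). PORCN, the enzyme that attaches the lipid, was at 4.94 FPKM or less in every library, also with overlap.

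**Figure D2:**
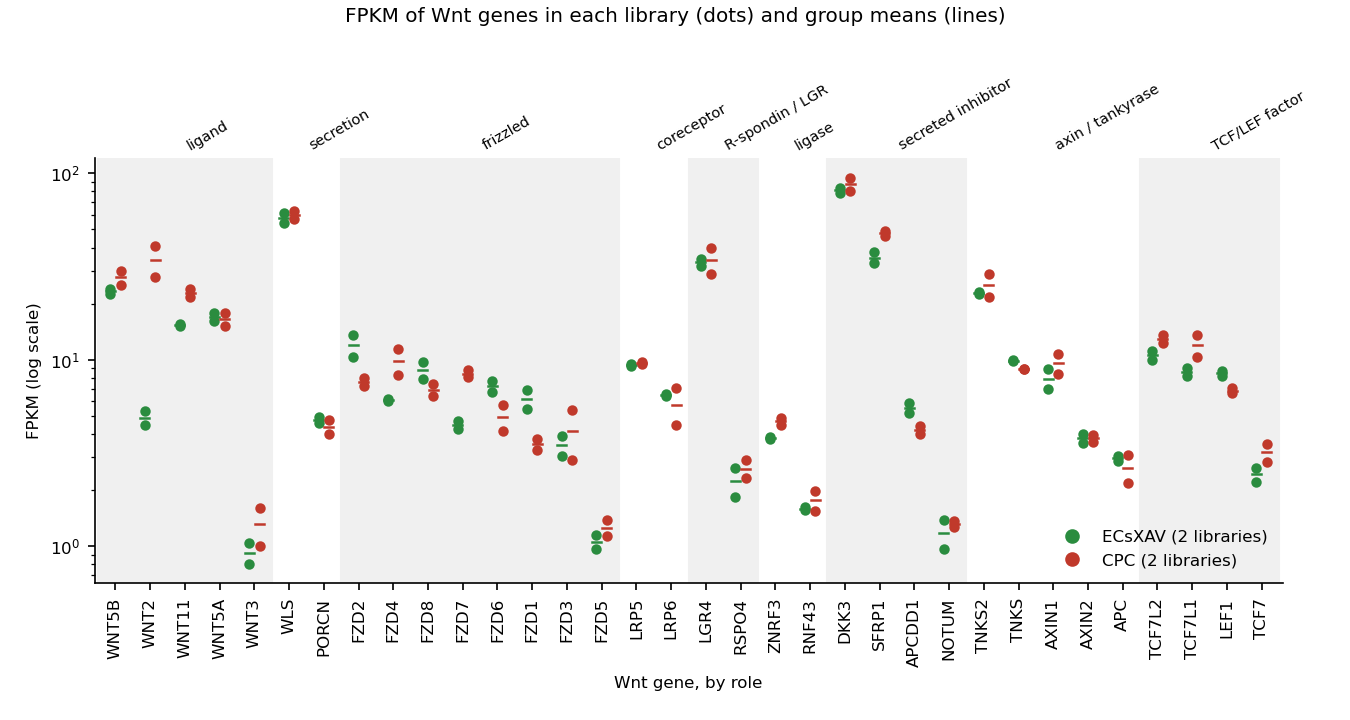
Dots give the FPKM (log scale) of the 34 tested Wnt genes in each of 2 ECsXAV and 2 CPC libraries, and short lines give the group means, with genes ordered by role and by level. WNT2 shows the widest gap between the groups, whereas AXIN2 and LRP5 lie close together in all 4 libraries.

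The frizzled receptors held no called gene. The summed FPKM of the 10 frizzled genes was 48.8 and 51.6 in ECsXAV and 49.1 and 45.1 in CPC. Of the 8 that reached the filter, 6 did not overlap between the groups, with FZD4 and FZD7 higher in CPC and FZD1, FZD2, FZD6 and FZD8 higher in ECsXAV. This is 75.0% of the 8, beside 49.8% of all genes, and 5, or 62.5%, had an unadjusted p under 0.05, beside 18.2%. As a description, with the pairs chosen after their values were seen, FZD4 and FZD7 together made up 21.3 and 20.8% of the frizzled sum in ECsXAV and 39.7 and 37.9% in CPC. FZD1 and FZD2 made up 35.2 and 36.8% against 21.4 and 26.0%. FZD2 had rank 1 in both ECsXAV libraries and rank 3 in both CPC libraries, where FZD4 and FZD7 held the top 2 ranks.

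FZD7, a receptor for canonical ligands that is prominent in embryonic stem cells and mesoderm, was at 4.25 and 4.72 FPKM in ECsXAV and at 8.07 and 8.78 FPKM in CPC. The log2 fold change was 0.78 (SE 0.12, 95% interval 0.47 to 1.09, adjusted p = 0.0492, limma), below the 2-fold limit. This p lay near the threshold. It was 0.147 to 0.381 when any single library was left out, 0.0959 without the filter, 0.0759 with a filter at 5 FPKM, 0.0584 after quantile normalization, 0.0510 with no trend and 0.0120 without short RNA symbols. The gene is at chr2:202898578-202903164 on the plus strand (GRCh37), with no overlapping annotated gene. FZD4, which also serves as the receptor for norrin in retinal vessels, was at 6.16 and 6.03 FPKM in ECsXAV and at 11.4 and 8.31 FPKM in CPC (log2 fold change 0.60, SE 0.17, 95% interval 0.16 to 1.04, adjusted p = 0.160, limma). FZD4 (chr11:86656721-86666437, minus strand, GRCh37) is overlapped on the opposite strand by PRSS23, whose own FPKM were 11.9 and 12.3 in ECsXAV and 24.3 and 20.6 in CPC (log2 fold change 0.83, adjusted p = 0.0459, limma). The study reports strand-specific read counts for a separate test with DESeq. Whether the FPKM were computed with strand is not stated, so reads of the 2 genes may not be separated.

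FZD1 was at 6.89 and 5.41 FPKM in ECsXAV and at 3.27 and 3.77 FPKM in CPC (log2 fold change -0.66, SE 0.16, 95% interval -1.06 to -0.25, adjusted p = 0.117, limma). FZD2 was at 10.3 and 13.6 FPKM in ECsXAV and at 7.24 and 7.95 FPKM in CPC (log2 fold change -0.58, SE 0.16, 95% interval -0.999 to -0.17, adjusted p = 0.152, limma). Both are closely related receptors of the same subgroup as FZD7, and both were lower in every CPC library than in every ECsXAV library without passing the threshold. FZD6 and FZD8 had the same order with smaller differences, at log2 fold changes of -0.47 and -0.31. FZD3 and FZD5 overlapped. Without short RNA symbols, WNT11 and FZD1 also had an adjusted p under 0.05, at 0.0352 and 0.0438, so that 4 of 34 members, or 11.8%, did so beside 7.98% of all genes in that fit. FZD4 and FZD2 remained above it, at 0.0672 and 0.0639.

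**Figure D3:**
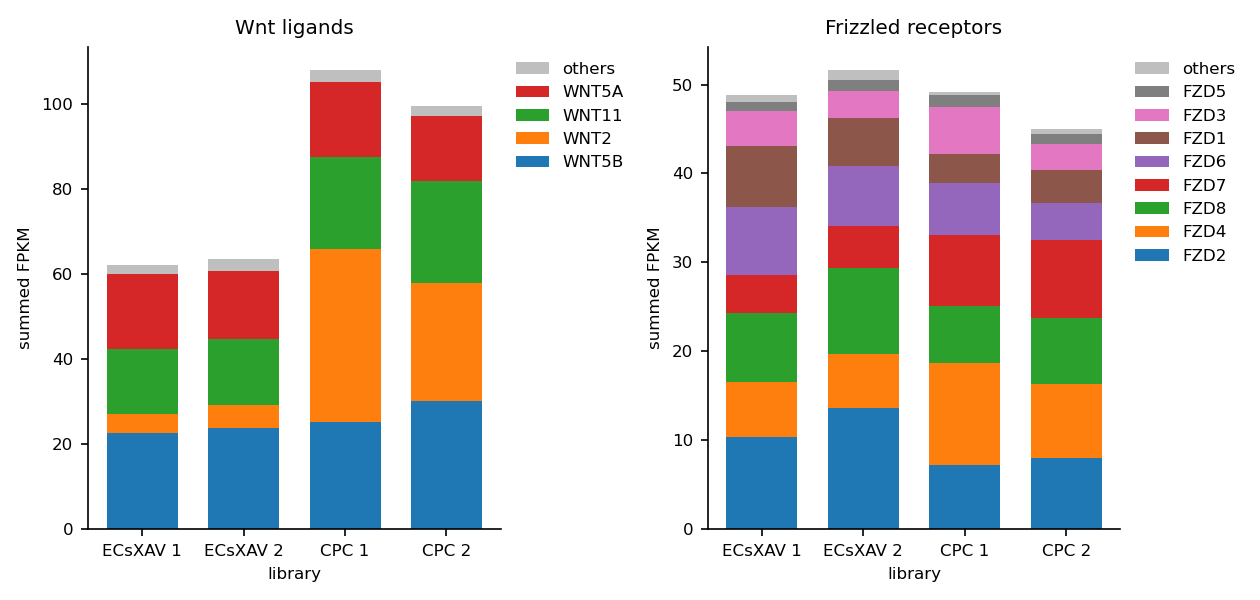
Stacked bars give the summed FPKM of the Wnt ligands (left) and of the frizzled receptors (right) in each library, divided by gene. The WNT2 segment of the ligand bar widens from 7.16 and 8.34% in ECsXAV to 37.6 and 28.0% in CPC, and the frizzled bars have a total of 45.1 to 51.6 FPKM, of which FZD4 and FZD7 together make up 21.3 and 20.8% in ECsXAV and 39.7 and 37.9% in CPC.

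The coreceptors and the R-spondin branch showed no called gene. LRP5, a coreceptor, was at 9.25 and 9.50 FPKM in ECsXAV and at 9.53 and 9.77 FPKM in CPC. These values did not overlap, but the log2 fold change was 0.04, with a 95% interval of -0.23 to 0.31. LRP6 overlapped, at 4.44 to 7.05 FPKM, with CPC replicate 2 the lowest. LGR4, an R-spondin receptor, was at 34.5 and 32.0 FPKM in ECsXAV and at 39.6 and 28.8 FPKM in CPC, with a log2 fold change of 0.02 (95% interval -0.44 to 0.48). RSPO4, an R-spondin that raises receptor levels at the cell surface, was at 1.83 to 2.89 FPKM, with overlap, and RSPO1, RSPO2, LGR5 and LGR6 were below the filter. The ligases ZNRF3 and RNF43 remove frizzled receptors from the membrane and are themselves targets of the pathway. ZNRF3 was at 3.76 and 3.85 FPKM in ECsXAV and at 4.89 and 4.46 FPKM in CPC (log2 fold change 0.24, adjusted p = 0.384, limma). RNF43 was at 1.57 and 1.61 FPKM against 1.97 and 1.55 FPKM, with overlap.

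DKK3 and SFRP1 dominated the secreted inhibitors in both groups. The summed FPKM of the 11 inhibitors was 120 and 130 in ECsXAV and 150 and 134 in CPC, of which DKK3 made up 60.5 to 65.5%. DKK3, a divergent DKK that is not an established inhibitor of β-catenin signaling, was at 78.8 and 83.1 FPKM in ECsXAV and at 94.8 and 80.8 FPKM in CPC (log2 fold change 0.11, 95% interval -0.22 to 0.44). SFRP1, a decoy that binds Wnt ligands outside the cell, was at 33.0 and 37.7 FPKM in ECsXAV and at 49.2 and 46.2 FPKM in CPC. Its groups did not overlap, and it was not called (log2 fold change 0.42, adjusted p = 0.158, limma). APCDD1, a membrane-bound inhibitor induced by the pathway, was at 5.88 and 5.19 FPKM in ECsXAV and at 3.99 and 4.41 FPKM in CPC, the opposite order, and was not called either (log2 fold change -0.33, adjusted p = 0.274, limma). NOTUM, an extracellular enzyme that removes the lipid from Wnt ligands, was at 0.964 and 1.39 FPKM against 1.37 and 1.26 FPKM, with overlap.

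The targets of the inhibitor and the complex they regulate had similar levels in both groups. TNKS, one of the 2 tankyrases, was at 9.95 and 9.82 FPKM in ECsXAV and at 8.94 and 8.96 FPKM in CPC (log2 fold change -0.13, 95% interval -0.40 to 0.14, adjusted p = 0.574, limma). TNKS2, the other, was the more strongly expressed, at 23.2 and 22.6 FPKM in ECsXAV and at 28.8 and 21.6 FPKM in CPC, with overlap (log2 fold change 0.12, 95% interval -0.30 to 0.54, adjusted p = 0.766, limma). Both intervals exclude a 2-fold difference of the transcript, and neither speaks of the enzymes' activity. AXIN1, the constitutive scaffold of the degradation complex, was at 6.95 and 8.91 FPKM in ECsXAV and at 8.36 and 10.8 FPKM in CPC (log2 fold change 0.24, 95% interval -0.22 to 0.71). APC, the partner of axin, was at 3.06 and 2.87 FPKM against 3.08 and 2.19 FPKM (log2 fold change -0.14, 95% interval -0.57 to 0.30).

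AXIN2, the scaffold that is also the standard transcriptional readout of β-catenin activity, had nearly the same level in both groups. It was at 3.98 and 3.58 FPKM in ECsXAV and at 3.92 and 3.64 FPKM in CPC, and both CPC values lay between the ECsXAV values. The log2 fold change was 0.00 (SE 0.12, 95% interval -0.32 to 0.32, adjusted p = 0.996, limma), which excludes a 2-fold difference in either direction on this scale at day 14, 7 days after XAV was taken off the ECsXAV cultures. The TCF/LEF factors, which carry β-catenin at its target genes, held no called gene. The groups did not overlap for any of the 4, as for 49.8% of all genes. LEF1, a target of the pathway as well, was at 8.74 and 8.21 FPKM in ECsXAV and at 6.65 and 7.01 FPKM in CPC (log2 fold change -0.28, 95% interval -0.56 to 0.01, adjusted p = 0.288, limma). TCF7, likewise a target, was at 2.21 and 2.64 FPKM in ECsXAV and at 2.82 and 3.55 FPKM in CPC (log2 fold change 0.29, adjusted p = 0.425, limma). TCF7L2 was at 11.2 and 9.91 FPKM against 13.5 and 12.2 FPKM (log2 fold change 0.27, adjusted p = 0.340, limma). TCF7L1, which acts mostly as a repressor, was at 8.22 and 9.03 FPKM against 10.4 and 13.6 FPKM. Its log2 fold change was the largest of the 4 (0.42, 95% interval 0.012 to 0.829, adjusted p = 0.263, limma). LEF1 was the lower in both CPC libraries and the other 3 the higher.

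A mean below 1 FPKM left 30 of the members untested. Of these 30, 5 were listed at 0 in all 4 libraries (RSPO1, FZD10, WNT7A, WNT10A and WNT16), 14 were at 0 in some libraries, and 22 stayed under 0.2 FPKM in every library, those 5 included. A value of 0 in this table can be a failed estimate and is given only as listed. Of 22 weak members with a single transcript and a value above 0, 15 had FPKM that fitted whole reads at the relative depth. The counts given are the smallest that fit, and the true counts may be multiples of them. A gene above 0 in only 1 library fits at 1 read whatever its count, as for WNT3A, WNT6, WNT7B, DKK4 and WIF1. For 10 of the 15 the smallest counts were no more than 2 reads in any library. Among those 10 were WNT1, WNT3A, WNT4, WNT9B, LGR5 and WIF1. These genes fell below the filter, so a difference was tested only in the fit without it. LGR5, a target and an R-spondin receptor, fitted at smallest counts of 0 and 1 reads in ECsXAV and 2 and 0 in CPC. SP5, a transcription factor induced directly by β-catenin, fitted at smallest counts of 5 and 0 reads in ECsXAV and 6 and 2 in CPC. Its values were 0.129 and 0 FPKM against 0.179 and 0.0649 FPKM, with no separation.

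DKK1, the inhibitor that blocks LRP5 and LRP6 and a direct target of β-catenin, had the smallest adjusted p of the weak members in a fit without the filter. It was at 0.986 and 1.24 FPKM in ECsXAV and at 0.260 and 0.283 FPKM in CPC. Both ECsXAV libraries were above both CPC libraries, and the mean FPKM was 4.10 times as high in ECsXAV. In that fit, the only one that tested it, it was not called (adjusted p = 0.0788, limma). Its promoter, printed above, held 1 of the searched motifs, as did 5.94% of all windows for at least 1. PRKG1-AS1, which overlaps DKK1 on the opposite strand, was at no more than 0.0976 FPKM. NKD2, an antagonist of Dishevelled, was at 0.748 and 1.28 FPKM in ECsXAV and at 0.339 and 0.570 FPKM in CPC. NKD1, its paralog and a common target of the pathway, was at 0.159 and 0.201 FPKM against 0.134 and 0.126 FPKM. FZD9 was at 0.844 and 1.18 FPKM against 0.243 and 0.635 FPKM. Over the 30 untested members the groups did not overlap for 10, with 9 higher in ECsXAV and 1, WNT10B, higher in CPC. These are 10 of the 25 that were above 0 in any library, near the 40.3% of all genes below the filter and above 0 in any library. The 9 are 36.0% beside 23.1%, while the 1 is 4.0% beside 17.1%. Several of these rest on a few reads.

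**Figure D4:**
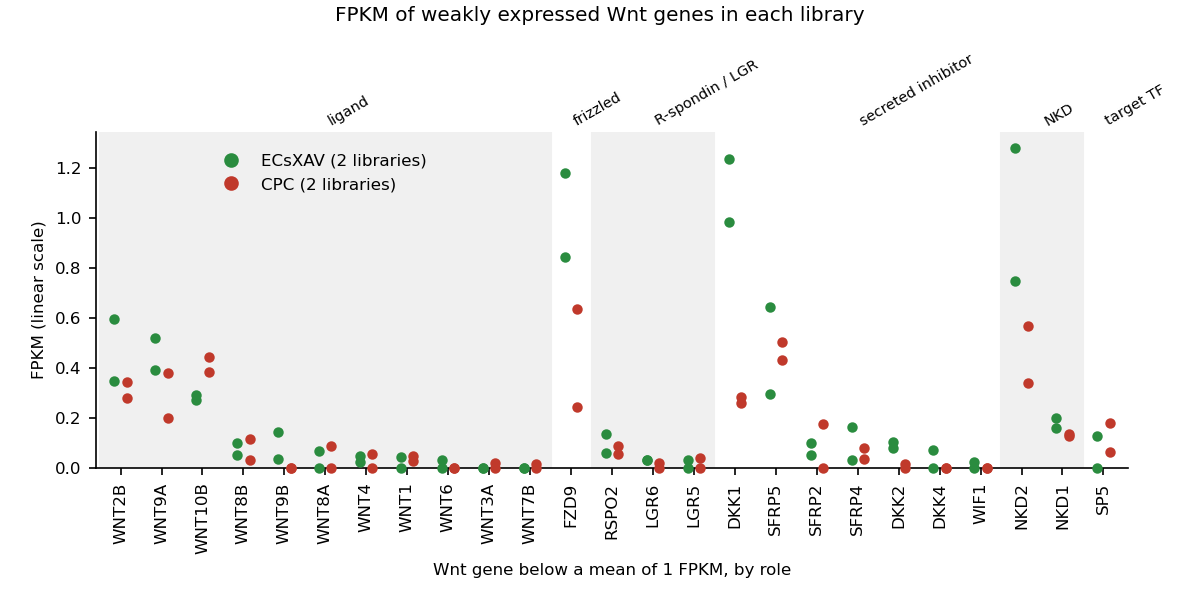
Dots give the FPKM (linear scale) of the 25 Wnt genes below a mean of 1 FPKM that were above 0 in any library, with 2 libraries in each group. DKK1 lies at 0.986 and 1.24 FPKM in ECsXAV and at 0.260 and 0.283 FPKM in CPC, and most other genes lie under 0.2 FPKM.

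Of the 11 feedback targets on the list, 7 were tested and none was called, beside 2.15% of all genes tested. So few genes cannot tell the targets from all genes by this count. Of the 7 that were tested, AXIN2, RNF43 and NOTUM overlapped, and LEF1, APCDD1, TCF7 and ZNRF3 did not, beside 49.8% of all genes without overlap. Of the 4 below the filter, DKK1 and NKD1 did not overlap, and SP5 and LGR5 did.

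Transcripts of the members were compared in the isoform table for 8 genes that had at least 2 transcripts at a mean of 0.5 FPKM or more. Of their 24 such transcripts, 3 had shares of the gene that did not overlap between the groups, which is 12.5% beside 37.1% of 9864 such transcripts of all genes. The LEF1 transcript NM_001166119 made up 56.8 and 55.6% of LEF1 in ECsXAV and 68.8 and 61.5% in CPC. The WLS transcript NM_001002292 made up 28.3 and 28.4% against 24.0 and 25.0%, and the TCF7L2 transcript NM_001198525 made up 10.7 and 22.2% against 8.39 and 5.50%. The splits were not stable between replicates. For TCF7L2, the transcript NM_001146285 made up 47.4 and 1.85% of the gene in the ECsXAV replicates and NM_001146286 made up 39.2 and 8.34% in the CPC replicates. For WNT2 the split varied as well. The coding transcript NM_003391 was at 2.15 and 5.21 FPKM in ECsXAV and at 40.6 and 19.3 FPKM in CPC, and made up 48.4, 98.3, 99.9 and 69.5% of the gene in that order of libraries. The rest was the non-coding NR_024047. The lowest CPC value of the coding transcript was still above both ECsXAV values.

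A further list of 64 genes gave the rest of the pathway, with the kinases and scaffolds of the complex, Dishevelled, the co-activators and co-repressors, the planar polarity branch, further inhibitors and targets. Of its 54 tested genes, 3 were called, or 5.56% beside 2.15% of all genes, 1 higher in CPC and 2 in ECsXAV. The median log2 fold change of the 54 was 0.04. DACT1, a Dishevelled-binding modulator of the pathway, was at 20.7 and 26.2 FPKM in ECsXAV and at 77.7 and 73.7 FPKM in CPC (log2 fold change 1.66, SE 0.15, adjusted p = 0.0175, limma). TMEM88, a membrane protein that binds Dishevelled, inhibits Wnt signaling and promotes cardiac specification, had the opposite direction, at 19.5 and 19.4 FPKM in ECsXAV and at 6.88 and 6.90 FPKM in CPC (log2 fold change -1.38, SE 0.10, adjusted p = 0.0122, limma). CCND1, which encodes cyclin D1 and is a target of many pathways, was at 10.0 and 11.9 FPKM in ECsXAV and at 3.73 and 4.53 FPKM in CPC (log2 fold change -1.22, SE 0.15, adjusted p = 0.0327, limma), and all 5 proliferation markers were lower in both CPC libraries as well. Their part in this result was not tested.

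The next differences of this list did not pass. KREMEN2, a receptor for DKK1, was at 1.58 and 1.78 FPKM in ECsXAV and at 0.441 and 0.397 FPKM in CPC (log2 fold change -0.92, adjusted p = 0.0593, limma). Its mean FPKM in CPC was 0.250 times that in ECsXAV, and with a pseudocount of 0.1 the log2 fold change was -1.78. PKMYT1 overlaps KREMEN2 on the opposite strand, so reads of these genes may not be separated, and this was not tested. GPC3, a cell-surface glypican, was at 41.5 FPKM in both ECsXAV libraries and at 87.6 and 69.9 FPKM in CPC (log2 fold change 0.90, adjusted p = 0.0542, limma). TNFRSF19, a target gene, was at 153 and 119 FPKM against 78.4 and 70.4 FPKM (log2 fold change -0.85, adjusted p = 0.0775, limma). Without short RNA symbols the adjusted p of KREMEN2, GPC3 and TNFRSF19 was 0.00818, 0.00689 and 0.0130 (limma), each still under 2-fold, and 8 of the 54 genes, or 14.8%, were under 0.05 beside 7.98% of all genes. CTNNB1, which encodes β-catenin and was looked up after the values were seen, was at 131 and 129 FPKM in ECsXAV and at 130 and 111 FPKM in CPC, with overlap (log2 fold change -0.11, 95% interval -0.45 to 0.23). As for WNT2, the calls of DACT1, TMEM88 and CCND1 were lost without the filter. They were lost as well in every fit that left out 1 library, except that DACT1 remained called without ECsXAV replicate 2.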

How the data were processed

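RNA-seq of poly-A-enriched RNA was analysed for 2 CPC and 2 ECsXAV libraries of day 14 RUES2 cultures. The authors deposited FPKM per gene and per transcript, computed with Cufflinks 2.1.1 and UCSC gene annotations on hg19. The submitters' processing notes name TopHat 1.3.3, while the study's methods name Gsnap, so the aligner behind the FPKM is uncertain. A scaling between libraries and the use of strand for the FPKM are not given in the sources used here. Without a stated scaling, groups were also compared after quantile normalization and median-of-ratios scaling. FPKM hide the number of reads. The relative depth, from 50.1 to 100% of ECsXAV replicate 1, came from the most frequent ratio of low FPKM between libraries. With that depth, weak genes were searched for the smallest whole reads that fit, up to 8, within 0.05 of a read. Groups and replicate numbers came from the labels. The p-values set the group difference against the spread between these replicate cultures, with a variance estimate that borrows from all tested genes. They do not measure a spread between differentiation experiments.

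The log2(FPKM + 1) values of the 12398 genes that averaged 1 FPKM or more were fitted in R 4.3.3 with limma 3.58.1 and an intensity trend, and p-values were adjusted by Benjamini-Hochberg over all of them. The step was tested on simulated data. A symbol listed at more than one locus was represented by its most strongly expressed entry. Python 3.11.15 was used with NumPy 2.4.6 and pandas 2.3.3 for tables and with matplotlib 3.10.9 for figures. Coordinates came from GENCODE release 44 on GRCh37, and promoter sequences from RefSeq on GRCh38.p14. The members, the other gene lists and the marker lists were chosen with earlier results of these data known.

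Values in every library are given for members past the criterion, for tested members without overlap and a log2 fold change over 0.5 in size, for the axin, APC and tankyrase genes, for the feedback targets AXIN2, SP5, LEF1, TCF7, NKD1, RNF43, ZNRF3, NOTUM, LGR5, APCDD1 and DKK1, and for the top member of each role. Of the other pathway genes, those past the criterion and the next 3 by size are named. Values of further genes were chosen after they were seen. The alternatives were no filter on low genes, a filter at 5 FPKM, a pseudocount of 0.1, the 2 scalings, no trend, a robust fit, the replicate number as a block, no short RNA symbols, summed loci, summed transcripts and each library left out in turn. The block without short RNA symbols was chosen after seeing the data.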

Additional observations from a re-analysis of the deposited data

How the results depend on the processing

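The count of 1 Wnt gene higher in CPC was 0 without the filter and 0 in each of the 4 fits that left out 1 library, and stayed at 1 under the other alternatives, while the count higher in ECsXAV was 0 under all of them. Of the other pathway genes, 3 were called, against 0 without the filter and 0 to 1 with a library left out. A fit with 1 library in a group assumes that it varies like the other group. Of 455 values of 29 genes under the alternatives, 425 kept their direction and their status as called or not called. Some of these crossed the threshold for adjusted p without a change of call, as FZD7 did without the filter and WNT11 without short RNA symbols. A further 19 values lost the call and 11 changed sign, all 11 with a library left out. These were genes with a small log2 fold change. With a library left out, APC ran from -0.32 to 0.041, AXIN2 from -0.059 to 0.062 with a further reversed value of -0.042, DKK3 from -0.0034 to 0.23, NOTUM from -0.044 to 0.24, RNF43 from -0.024 to 0.20 and TNKS2 from -0.082 to 0.32. LGR4 ran from -0.20 to 0.25 with a further reversed value of -0.032, and WLS from -0.031 to 0.14 with a further one of -0.0060. The log2 fold change of WNT2 ran from 2.30 to 2.83 with a library left out, and its adjusted p over all alternatives from 8.7e-05 to 0.0952. Over all genes, 266 were called, against 20 without the filter, 152 at a mean FPKM of at least 5 and 50 to 118 with a library left out. The scalings moved the median of all genes by 0.0171 and 0.00644 on the log2 scale. The depth limits the weak members, where a library holds few reads.

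The fit that took the replicate number as a block called 176 genes, and 346 with short RNA symbols left out as well, against 339 for that omission alone. The block kept the count of Wnt genes at 1 (WNT2, adjusted p = 0.0388) and of other pathway genes at 3, and the adjusted p of FZD7 became 0.0612. The differences of replicate 1 and 2 had a Pearson's r of 0.0349 and a Spearman's rho of 0.356 between the groups across genes, which are not independent replicates, and the labels do not say that a number marks a shared batch. The cause of the lost calls was not tested.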
